A study of Mus musculus with 7 samples.

Results

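The naive pluripotency factors are 10 genes that encode transcription regulators of mouse embryonic stem cells: *Pou5f1*, *Nanog*, *Sox2*, *Klf4*, *Klf2*, *Esrrb*, *Tbx3*, *Zfp42*, *Tfcp2l1* and *Prdm14*. They were chosen by symbol, and all 10 had a row among the 22556 genes of the expression table. POU5F1 (OCT4) and SOX2 bind DNA together at composite sites and hold the pluripotent state with NANOG, while KLF4, KLF2, ESRRB, TBX3, TFCP2L1 and PRDM14 belong to the network that is active in the naive, pre-implantation-like state. LIF acts on this network through STAT3, with *Klf4* and *Tfcp2l1* among its known targets. The WNT pathway acts through removal of repression by TCF7L1, to which *Esrrb* responds, and the network is dismantled as cells pass to the formative state. *Zfp42* (REX1) is a widely used reporter of the naive state.

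The factors were measured by ChrRNA-seq, sequencing of the RNA that stays with the insoluble chromatin fraction, in which unspliced nascent transcripts are enriched. All libraries came from C7H8, 1 clone of XX mES cells of a Cast x 129S background, in which a TetOn promoter replaces that of *Xist* on the Cast X chromosome. The cells grew with serum, LIF and mouse fibroblast feeders. Cells were given DMSO in 3 libraries, and STM2457, an inhibitor of the m6A methyltransferase METTL3, in the other 4, of which 2 were at 10 µM, 1 at 20 µM and 1 at 30 µM. After 6 h, Dox at 1 µg/ml was added under the same treatment for 24 h, so that *Xist* was induced in the DMSO cells too. The study used the inhibitor to ask whether the catalytic activity of METTL3 sets the pace of X inactivation, and the same libraries give the levels of the factors. Values are in RPM, read pairs of a gene scaled to the total of its library on genes, and depth ran from 9300549 read pairs at 20 µM to 28030180, with a median of 23367051.

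Before dose could be considered, the libraries fell into 2 sets. The first principal component, taken over 13003 autosomal genes and with 78.8% of their variance, placed DMSO replicates 1 and 2 with both 10 µM libraries (set 1, 4 libraries), and DMSO replicate 3 with the 20 µM and 30 µM libraries (set 2, 3 libraries). The labels do not name these sets. The sums of marker lists of other cell types, early lineages apart, differed between the sets, each through a few genes. Of all genes tested, 18.7% were higher and 39.8% lower in set 2 without overlap, so the sets separated many genes besides these markers. The 14 feeder markers summed to 14.6 to 16.6 RPM in set 2 and 7.96 to 10.1 RPM in set 1, with 4 higher in set 2 without overlap (*Col5a2*, *Prrx1*, *Col3a1* and *Postn*), 1 lower (*Pdgfrb*) and 9 overlapping. *Col5a2* carried most of this, at 6.38 to 7.53 RPM in set 2 and 1.49 to 2.53 RPM in set 1. Of the feeder markers 5 were at 0 in some libraries and 0 were at 0 in all. The 8 primitive endoderm markers summed to 307 to 414 RPM in set 2 and 469 to 506 RPM in set 1, nearly all from *Lama1*, which was lower in set 2, while *Dab2* was higher there and 6 overlapped. The 8 trophoblast markers summed to 17.5 to 18.2 RPM in set 2 and 28.4 to 35.2 RPM in set 1, mostly from *Tfap2c*, which was lower in set 2, while *Elf5* and *Gata3* were higher there and 5 overlapped. *Cdx2* was at 0 in all but DMSO replicate 3. The sums of the 8 early lineage genes, 8.70 to 13.6 RPM, overlapped between the sets. Of these genes 2 were higher in set 2 without overlap (*Mixl1* and *Pax6*), 2 lower (*T* and *Gsc*) and 4 overlapping, with *Sox1* and *Neurog2* listed at 0 throughout. *Prrx1*, *Col3a1*, *Postn*, *Elf5*, *Gata3*, *Mixl1* and *Gsc* averaged under 1 RPM, so the shares of all genes tested above do not cover them. *Postn* was separated only by 0.0466 RPM in DMSO replicate 3 against 0.0394 RPM in 10 µM replicate 1. Both were below the worth of 3 read pairs there (0.140 and 0.118 RPM). These markers are named after their values were seen. The part of other cell types in the results below was not tested, and fewer cells of a type cannot be told apart from less RNA per cell.

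The promoters of the factors that the results turn on are shown first. RefSeq (GRCm38.p6, the mm10 build) gave 250 bases before the start of 11 transcripts of 8 factors. *Tbx3* and *Prdm14* had no entry. By library totals, the levels of *Nanog* and *Zfp42* were close in both library sets, and those of *Klf4* and *Tfcp2l1* were lower in set 2. These promoters, picked after the values were seen, are shown 5′ to 3′ on the strand of the gene. *Pou5f1* and *Esrrb*, whose levels overlapped between the sets too, are not printed. Capitals mark the octamer core TTTGCAT, the sequence that POU5F1 recognises, and an adjacent ACAATG, a SOX core.
*Nanog*, chr6:122707239-122707488, plus strand: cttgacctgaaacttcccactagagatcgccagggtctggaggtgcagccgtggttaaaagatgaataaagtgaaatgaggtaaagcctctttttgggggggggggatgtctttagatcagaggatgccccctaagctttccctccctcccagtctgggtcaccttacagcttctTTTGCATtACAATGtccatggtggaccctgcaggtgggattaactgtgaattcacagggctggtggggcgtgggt
*Zfp42*, chr8:43307010-43307259, minus strand: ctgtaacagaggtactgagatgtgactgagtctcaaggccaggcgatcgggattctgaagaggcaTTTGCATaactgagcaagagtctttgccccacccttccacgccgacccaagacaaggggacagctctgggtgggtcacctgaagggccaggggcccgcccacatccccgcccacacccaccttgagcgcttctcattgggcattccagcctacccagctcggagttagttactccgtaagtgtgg
*Klf4*, chr4:55532476-55532725, minus strand: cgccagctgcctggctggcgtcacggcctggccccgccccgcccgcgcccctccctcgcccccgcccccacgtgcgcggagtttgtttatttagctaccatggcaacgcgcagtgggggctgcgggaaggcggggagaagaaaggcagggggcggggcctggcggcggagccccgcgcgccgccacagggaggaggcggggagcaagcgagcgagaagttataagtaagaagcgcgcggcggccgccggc
*Tfcp2l1*, chr1:118627695-118627944, plus strand: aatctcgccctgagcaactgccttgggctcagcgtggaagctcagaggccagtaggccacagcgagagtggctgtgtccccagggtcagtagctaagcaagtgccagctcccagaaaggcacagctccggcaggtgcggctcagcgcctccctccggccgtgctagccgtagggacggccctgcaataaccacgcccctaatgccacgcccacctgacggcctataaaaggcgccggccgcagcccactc

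Searched on both strands, the octamer core was in 4.12% of 32851 promoters. Among the factors it was in the windows of *Nanog* (at -75 from the start), *Zfp42* (at -185) and *Sox2* (at -99, on the opposite strand). It was in no window of *Pou5f1* or *Esrrb*, whose levels overlapped between the sets, nor of *Klf4*, *Klf2* or *Tfcp2l1*. In *Nanog* it was followed after 1 base by ACAATG at -67, and this arrangement was in 2 of the 32851 promoters, which were the overlapping windows of 2 *Nanog* transcripts. ACAATG alone was in 10.7% of promoters, and among the other factors in a window of *Pou5f1* (at -158). GGGCGG, a GC box of the kind that KLF and SP proteins bind, was in 32.7% of promoters. It occurred 4 times in the window of *Klf4*, 2 times each in those of *Klf2*, *Sox2* and *Zfp42*, and 1 time in a window of *Pou5f1* (at -45). CAAGGTCA, a site for ESRRB, was in 1.33% of promoters and in no window of the factors. TATAAA was in 12.4% of promoters and lay at -28 in *Tfcp2l1*. These are matches of letters, not measured binding.

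*Sox2* could not be measured. It encodes the partner of POU5F1, it has 1 exon, and it was listed at 0 in each of the 7 libraries, where 0 read pairs allow up to 0.107 to 0.323 RPM (3 read pairs) by counting error alone. Its span (chr3:34650005-34652460, plus strand, mm10) lies inside that of *Sox2ot* (chr3:34560381-34677993), a long noncoding RNA gene on the same strand. Of the 368 genes in the table that lie inside another gene on the same strand, 367 (99.7%) were at 0 in every library, against 2595 of the other 22188 genes (11.7%). The exception was *Rpl30*, at 0.0852 RPM in a single library and 0 in the others, a gene named here after its values were seen. In the counting program that the study names, a read that 2 genes share is by default given to neither. The 0 of *Sox2* is therefore no measure of its expression. *Sox2ot*, which loses the shared reads too, was at 39.7, 53.9 and 93.2 RPM in DMSO replicates 1, 2 and 3, at 43.3 and 57.2 RPM in 10 µM replicates 1 and 2, at 69.8 RPM at 20 µM and at 87.0 RPM at 30 µM. It was higher in each set 2 library than in any set 1 library.

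The other 9 factors were all expressed and passed the filter of a mean of 1 RPM. Per kilobase of gene span in DMSO (mean ± SD, n = 3), *Zfp42* stood highest at 49.7 ± 4.30 RPM per kb. *Nanog* followed at 11.3 ± 0.593 RPM per kb. *Klf4* at 8.61 ± 3.68, *Pou5f1* at 8.16 ± 0.937 and *Klf2* at 8.15 ± 1.86 RPM per kb differed by less than their spread. *Tfcp2l1* at 6.62 ± 1.95 and *Tbx3* at 5.98 ± 0.877 RPM per kb also lay within their spread of each other. *Esrrb*, the longest of the factors with a span of 160512 bases, was at 4.61 ± 0.315 RPM per kb, and *Prdm14* was lowest at 2.24 ± 0.680 RPM per kb. Without the division by length the order differed: *Esrrb* at 739 ± 50.5 RPM, *Zfp42* at 593 ± 51.4 RPM and *Tfcp2l1* at 379 ± 112 RPM ranked 129th, 211th and 501st of 22556 genes by mean RPM over the 7 libraries. In ChrRNA-seq, reads from introns count, and exons made up 3.77% of the span of *Esrrb* and 70.4% of that of *Klf2*, the shortest of the 9.

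By library totals, the core factors changed little between libraries. *Pou5f1* (chr17:35506032-35510777, plus strand) was at 41.5, 41.1 and 33.6 RPM in DMSO replicates 1, 2 and 3, at 42.7 and 47.9 RPM in 10 µM replicates 1 and 2, at 44.0 RPM at 20 µM and at 34.9 RPM at 30 µM. Both 10 µM libraries were above all 3 DMSO libraries, the lowest library was DMSO replicate 3, and the 30 µM library lay among the DMSO values. *Nanog* (chr6:122707489-122714633, plus strand) was at 81.9, 84.4 and 76.1 RPM in DMSO, at 71.4 and 82.9 RPM at 10 µM, at 95.7 RPM at 20 µM and at 78.0 RPM at 30 µM. Its DMSO libraries spanned 1.11-fold, the least of the 9 factors, and its highest and lowest libraries were both inhibitor libraries. Only unique alignments were counted, so reads that match a near-identical copy of *Pou5f1* or *Nanog* elsewhere in the genome would be missing from these levels.

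The KLF factors, zinc-finger proteins of which KLF4 is one of the reprogramming factors, were lower in set 2. *Klf4* (chr4:55527137-55532475, minus strand) was at 58.6, 56.0 and 23.4 RPM in DMSO replicates 1, 2 and 3, at 65.8 and 70.5 RPM at 10 µM, at 38.0 RPM at 20 µM and at 29.4 RPM at 30 µM. Both 10 µM libraries were above all 3 DMSO libraries. DMSO replicate 3 was the lowest of all 7 libraries, and the DMSO libraries alone spanned 2.51-fold, the widest of the 9 factors. *Klf2* (chr8:72319062-72321654, plus strand) was at 23.3, 24.5 and 15.6 RPM in DMSO, at 19.4 and 24.5 RPM at 10 µM, at 18.3 RPM at 20 µM and at 13.9 RPM at 30 µM. Every set 2 library was below every set 1 library for both genes, though with TMM factors those of *Klf2* overlapped.

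By library totals, all 9 factors except *Zfp42* were lower in DMSO replicate 3 than in both other DMSO libraries, *Tfcp2l1*, *Prdm14* and *Tbx3* among them. The share of all genes lower than in both was not counted. Against the mean of DMSO replicates 1 and 2, the median of all genes tested was itself at -0.18 there on the log2 scale. In this comparison *Nanog*, *Esrrb*, *Pou5f1* and *Tbx3* stood above 53.4%, 52.8%, 42.8% and 38.3% of all genes tested. *Klf2*, *Prdm14*, *Tfcp2l1* and *Klf4* stood above 25.6%, 15.8%, 15.6% and 5.21%. With TMM factors *Nanog* and *Esrrb* were each at 0.05 in this comparison. *Tfcp2l1* (chr1:118627945-118685168, plus strand), which encodes a factor downstream of LIF and STAT3, was at 431, 455 and 251 RPM in DMSO, at 382 and 436 RPM at 10 µM, at 290 RPM at 20 µM and at 308 RPM at 30 µM. Its 30 µM and 20 µM libraries were both above DMSO replicate 3 and below all of set 1. *Prdm14* (chr1:13113428-13127163, minus strand), whose product represses FGF signalling and DNA methylation genes, was at 37.5, 34.6 and 20.1 RPM in DMSO, at 28.8 and 29.7 RPM at 10 µM, at 12.7 RPM at 20 µM and at 14.9 RPM at 30 µM. Each inhibitor library was below the DMSO libraries of its own set, although DMSO replicate 3 was below both 10 µM libraries. *Tbx3* (chr5:119670862-119684724, plus strand), a T-box factor, was at 85.7, 93.3 and 69.5 RPM in DMSO, at 77.0 and 109 RPM at 10 µM, at 68.8 RPM at 20 µM and at 86.1 RPM at 30 µM, with its highest and lowest libraries both among the inhibitor libraries.

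*Esrrb* and *Zfp42* kept high levels throughout. *Esrrb* (chr12:86361117-86521628, plus strand), an orphan nuclear receptor, was at 794, 730 and 694 RPM in DMSO, at 688 and 770 RPM at 10 µM, at 545 RPM at 20 µM and at 776 RPM at 30 µM. The 20 µM library stood below the others and the 30 µM library among the highest. *Zfp42* (chr8:43295067-43307009, minus strand), a zinc-finger gene, was at 579, 550 and 650 RPM in DMSO, at 561 and 579 RPM at 10 µM, at 528 RPM at 20 µM and at 559 RPM at 30 µM. Its highest library was DMSO replicate 3. Counting error alone, as 95% Wilson intervals, ran from 10.6 to 15.2 RPM for *Prdm14* at 20 µM (118 read pairs, the fewest of the 9 factors) and from 18.3 to 22.1 RPM in DMSO replicate 3. For *Klf2* the intervals of the 20 µM library, 15.7 to 21.2 RPM, and of DMSO replicate 3, 14.0 to 17.4 RPM, overlapped.

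**Figure D1:**
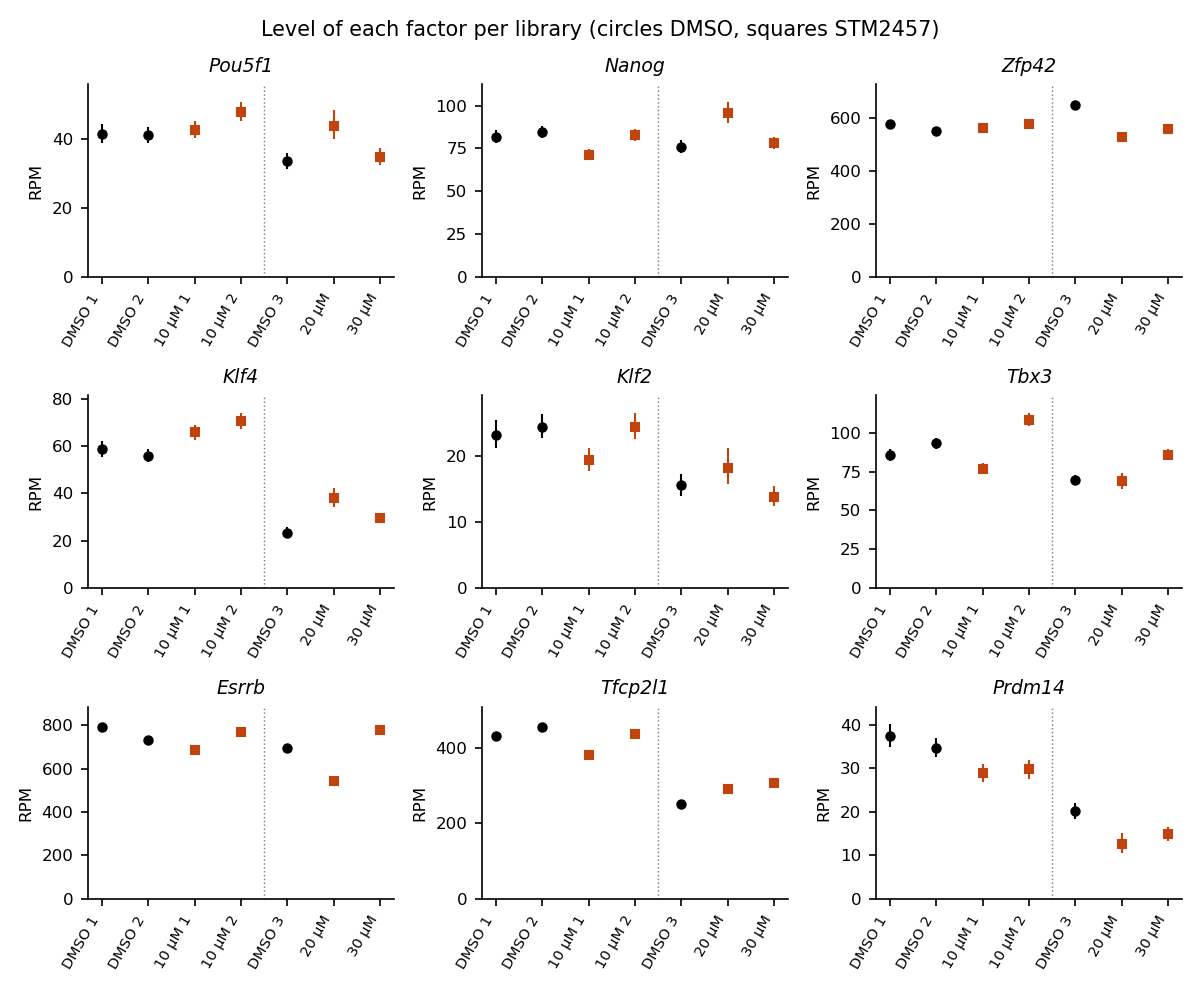
Level of the 9 measured factors in RPM (y axis, from 0) in each library (x axis), with set 1 left and set 2 right of the dotted line. Circles are DMSO and squares STM2457 libraries, and bars are 95% Wilson intervals for counting error only. *Klf4*, *Klf2*, *Tfcp2l1* and *Prdm14* were lower in all set 2 libraries than in set 1, the DMSO library included, except that with TMM factors *Klf2* overlapped.

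At 10 µM, the only dose with replicates, no factor passed the test. By limma, with 0 of 13599 genes called (0% of the genes tested), the differences of the 9 factors from DMSO ran from -0.07 for *Nanog* to 0.67 for *Klf4* on the log2(RPM + 1) scale, and 5 of 9 were above 0. Their median was 0.07, against 0.09 over all genes tested. *Klf4* was at 68.2 ± 3.34 RPM (SD, n = 2) at 10 µM and 46.0 ± 19.6 RPM (SD, n = 3) in DMSO, a difference of 0.67 with an SE of 0.40 (adjusted p = 0.811, limma). The 95% interval of this difference ran from -0.28 to 1.62, so that even a marked rise could not be told from none. For *Pou5f1* the difference was 0.23 with an SE of 0.18 (adjusted p = 0.811, limma), and for *Esrrb* it was -0.02 with an interval from -0.33 to 0.29. At an unadjusted p under 0.05, limma counted 212 genes and edgeR 195, none of them a factor. edgeR called 0 genes and DESeq2 called 1, which was not a factor.

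The 10 µM libraries share their numbers with DMSO replicates 1 and 2. With the replicate number as a block in limma, over these 4 libraries alone, 1020 genes (7.5% of those tested) passed, 561 higher and 459 lower, and still no factor did. *Klf4* came nearest, with 0.25 and an SE of 0.09 (adjusted p = 0.0512, limma), higher in 2 of 2 pairs. *Prdm14* followed with -0.29 and an SE of 0.11 (adjusted p = 0.0734, limma), lower in 2 of 2 pairs. In this fit *Klf2* and *Tfcp2l1* moved from 0.07 and 0.15 to -0.12 each. With 1 residual degree of freedom a gene, this fit leans on the spread shared over genes.

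Across doses, the slope over all 7 libraries also called no gene (0 of 13599, 0% of the genes tested). At an unadjusted p under 0.05 limma counted 1174 genes and edgeR 1110, with *Prdm14* the 1 factor among them in both. *Prdm14* had the steepest slope of the factors, -0.38 per 10 µM on the log2(RPM + 1) scale with an SE of 0.13, which did not pass (adjusted p = 0.508, limma), and 5.63% of all genes had a larger slope in either direction. *Klf2* had -0.16 with an SE of 0.10 and *Klf4* -0.15 with an SE of 0.18. *Tfcp2l1* had -0.10 with an SE of 0.10, and the other 5 factors lay between -0.04 and 0.02. All 7 genes of the naive group other than *Pou5f1* and *Nanog* had slopes below 0, with a median of -0.10 against -0.04 over all genes. This direction rested on scaling and on the sets. With TMM factors, which move the median slope of all genes to 0.0048, 5 of 9 factors had slopes above 0, among them *Esrrb*, *Tbx3* and *Zfp42*.

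With the library set as a term in the slope, 27 genes passed (0.199% of those tested), none of them a factor. *Klf4* turned from -0.15 to 0.16 with an SE of 0.07 (adjusted p = 0.475, limma). *Tfcp2l1* turned from -0.10 to 0.06 with an SE of 0.05. *Prdm14* kept its sign at -0.18 with an SE of 0.07 (adjusted p = 0.387, limma). Leaving out DMSO replicate 3, the only DMSO library of set 2, had the opposite effect: 2485 genes passed, 1537 of them lower (11.3% of those tested), and with them *Prdm14* at -0.49 (adjusted p = 0.0276, limma), *Tfcp2l1* at -0.21 (adjusted p = 0.0431, limma) and *Klf4* at -0.33 (adjusted p = 0.0465, limma), each lower. Without that library the 20 µM and 30 µM doses and set 2 cannot be told apart. The 10 µM comparison and the slope share the DMSO libraries.

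**Figure D2:**
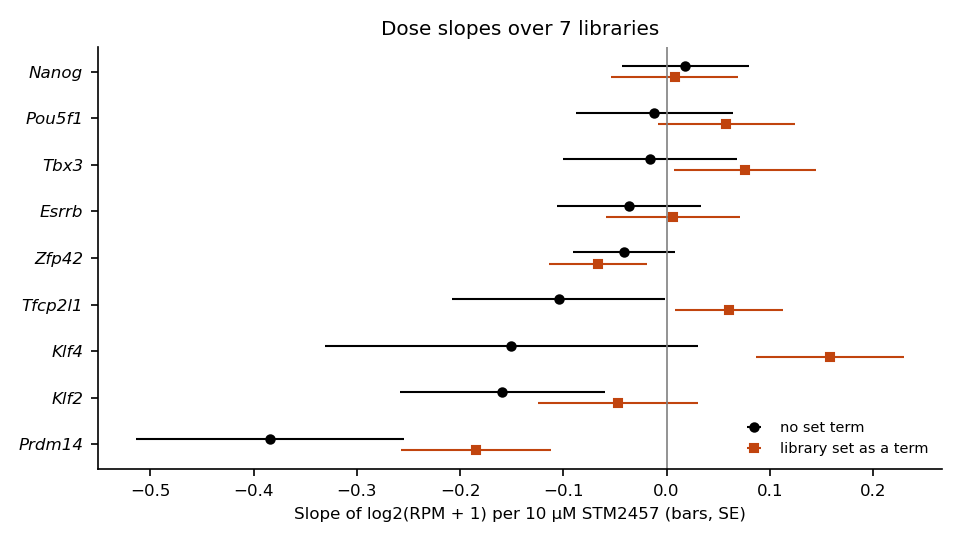
Slope of log2(RPM + 1) per 10 µM STM2457 (x axis) for the 9 factors (y axis) over 7 libraries, without (circles) and with (squares) the library set as a term. Bars are SE. *Klf4* moved from -0.15 to 0.16 and *Tfcp2l1* from -0.10 to 0.06, while *Prdm14* was below 0 in both fits.

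Set beside a DMSO library of the same set, 2 factors were higher in every inhibitor library and 1 was lower. *Klf4* was at 1.12 and 1.26 times the same-numbered DMSO library in 10 µM replicates 1 and 2, at 1.62 times DMSO replicate 3 at 20 µM and at 1.26 times it at 30 µM. *Pou5f1* stood at 1.03, 1.17, 1.31 and 1.04 times its DMSO library in the same order. Of all genes tested 15.9% were higher in all 4 such ratios, beside 2 of 9 factors. *Prdm14* stood at 0.769, 0.859, 0.632 and 0.740 times its DMSO library, lower in 4 of 4, as were 14% of all genes tested, beside 1 of 9 factors. These counts are near the shares of all genes. *Nanog*, *Klf2*, *Esrrb*, *Tfcp2l1*, *Tbx3* and *Zfp42* lay on both sides of their DMSO libraries. *Zfp42* was at 0.969 and 1.05 times DMSO at 10 µM and at 0.812 and 0.860 times it at 20 µM and 30 µM.

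At the higher doses there is 1 library each, so these ratios have no replicate check, and both share DMSO replicate 3. A difference of over 0.5 on the log2 scale from DMSO replicate 3 was found at 20 µM for 2 of 9 factors, *Klf4* at 0.68 and *Prdm14* at -0.62, and for 18.2% of all genes tested. At 30 µM it was found for 0 of 9 factors, where *Prdm14* was at -0.41 and *Klf4* at 0.32, and for 11.9% of all genes tested. In the 20 µM library *Lars2*, *Cmss1*, *Gphn*, *Cdk8* and *Camk1d* took 8.92% of read pairs, against 0.212 to 1.16% in the others, which lowers the RPM of every other gene there. Scaled to totals without these 5 genes, *Tbx3* at 20 µM moved from -0.01 to 0.10 on the log2 scale. *Pou5f1* moved from 0.38 to 0.49 and *Klf4* from 0.68 to 0.79. With TMM factors *Pou5f1* was at 0.51, past the size counted above, beside *Klf4* at 0.80 and *Prdm14* at -0.50. The share of all genes past this size was not counted with TMM factors.

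**Figure D3:**
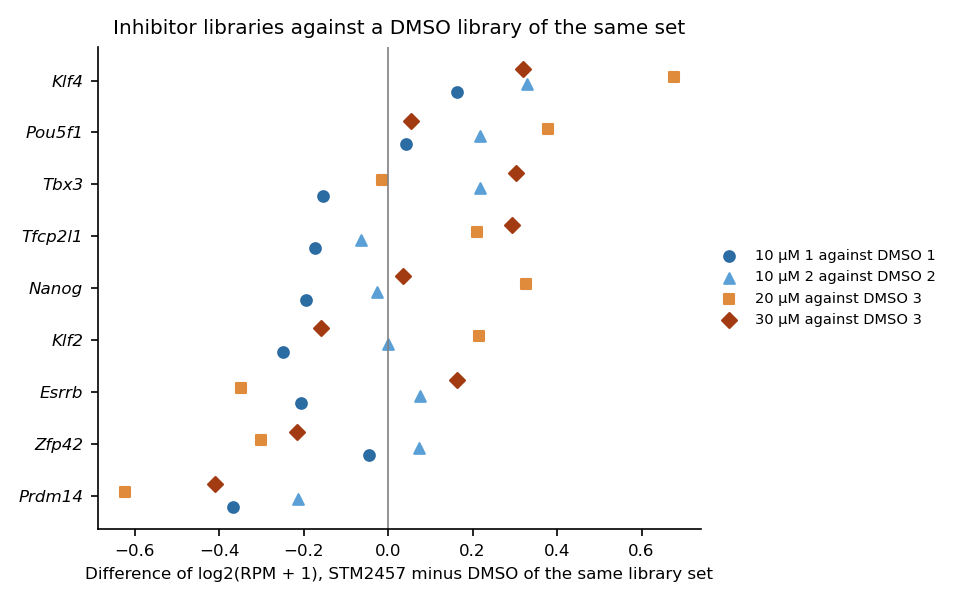
Difference of log2(RPM + 1) between each STM2457 library and a DMSO library of its own set (x axis) for the 9 factors (y axis). Each marker is 1 pair of libraries, as the legend names them. All 4 markers lay above 0 for *Klf4* and *Pou5f1* and below 0 for *Prdm14*.

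The difference between sets was wide for some factors. In set 2, 4 of 9 factors were below set 1 with no overlap between libraries, as were 39.8% of all genes tested, and 0 of 9 were above it, as were 18.7%. *Klf4* averaged 30.2 ± 7.32 RPM in set 2 (SD, n = 3) and 62.7 ± 6.65 RPM in set 1 (SD, n = 4). *Prdm14* averaged 15.9 ± 3.80 RPM and 32.7 ± 4.10 RPM, *Tfcp2l1* 283 ± 29.2 RPM and 426 ± 31.1 RPM, and *Klf2* 15.9 ± 2.22 RPM and 22.9 ± 2.40 RPM. The libraries were placed in sets by their expression, so no test was made between sets. On this scale the median gene was 0.20 lower in set 2, and with TMM factors it was 0.0022 higher. Scaled with TMM, *Klf2* overlapped between sets, and *Zfp42* was higher in set 2 with no overlap, as were 30.1% of all genes tested. With totals without the 5 genes *Klf2* overlapped too.

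Shorter genes were lower in set 2 than longer ones, so each factor was set beside genes of its own length class. The median difference between sets ran from -0.68 on the log2 scale for 1374 genes with a span under 5 kb to 0.07 for 2089 genes of 100 kb or more, and genes under 10 kb took 5.04 to 5.91% of read pairs in set 2 and 7.36 to 8.73% in set 1. *Klf4*, at -1.05 with a class median of -0.43, lay below the quartiles of its class. So did *Prdm14*, at -1.01 with a class median of -0.22, and *Tfcp2l1*, at -0.59 with a class median of -0.06. *Klf2* was inside the quartiles of its class at -0.50, with a median of -0.68. *Nanog* at 0.05 and *Pou5f1* at -0.21 lay above the quartiles of theirs, with class medians of -0.43 and -0.68. *Esrrb*, *Tbx3* and *Zfp42* lay inside. The part of feeder content or of the length of genes in these values was not tested.

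**Figure D4:**
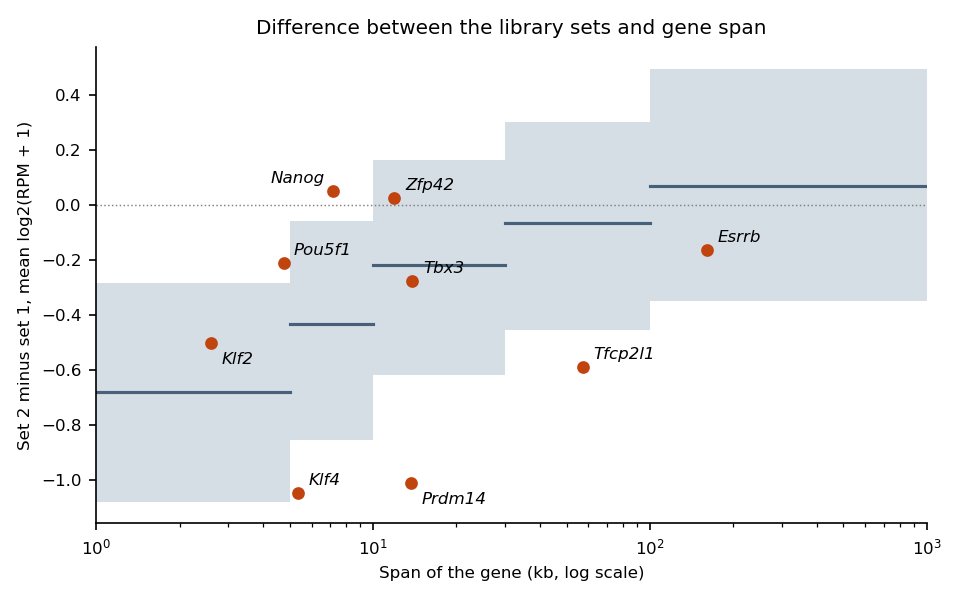
Difference between set 2 and set 1 in mean log2(RPM + 1) (y axis) against gene span in kb (x axis, log scale). Lines are the medians and bands the middle 50% of all genes tested in 5 classes of span, and points are the 9 factors. *Klf4*, *Prdm14* and *Tfcp2l1* lay below the band of their class, and *Nanog* and *Pou5f1* above it.

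The pathways around the factors gave no call in the test at 10 µM or in the slope, and neither did the markers of feeders (4 tested), primitive endoderm (6), trophoblast (4) and early lineages (3). Of the LIF and STAT3 genes, 0 of 12 passed in either, and the steepest slopes were those of *Pim3*, a kinase gene that STAT3 induces, at -0.68, and *Junb* at -0.59, which were -0.14 and -0.28 with the set as a term. *Pim3* was at 24.5 to 30.5 RPM in set 1 and at 3.55 to 6.29 RPM in set 2, where DMSO replicate 3 was the highest. *Junb* was at 5.56 to 7.80 RPM in set 1, at 2.89 RPM in DMSO replicate 3, at 1.18 RPM at 20 µM and at 0.942 RPM at 30 µM. Of the WNT and TCF genes, 0 of 10 passed. *Tcf7l1*, which encodes the repressor of the naive network, had a slope of 0.38 and was at 197 to 294 RPM in set 1 and 603 to 841 RPM in set 2, and with the set as a term its slope was -0.01. *Tcf7* had a slope of -0.23, which turned to 0.07.

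*Lef1*, another TCF-family gene, was the 1 gene of all these lists to pass the slope with the set as a term, and it fell by 0.43 per 10 µM with an SE of 0.07 (adjusted p = 0.0456, limma). Without that term its slope was -0.07 (adjusted p = 0.869, limma), and the sets were themselves taken from expression. *Lef1* was at 52.6 and 52.9 RPM in DMSO replicates 1 and 2 and at 38.7 and 34.6 RPM in 10 µM replicates 1 and 2. It was at 149 RPM in DMSO replicate 3, at 61.8 RPM at 20 µM and at 67.8 RPM at 30 µM. Each inhibitor library was lower than the DMSO libraries of its set. Of all genes tested, 14% were lower in 4 of 4 ratios to a DMSO library of the same set. *Lef1* is named here for this call, after its values were seen.

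Of 9 BMP and SMAD genes 0 passed, and *Id1*, a target of BMP4, had a slope of 0.46 from levels of 2.96 to 5.12 RPM in set 1 and of 7.59 to 14.4 RPM in set 2 (0.22 with the set as a term). *Bmpr2*, a receptor gene, had a slope of 0.22, and of 0.10 with the set as a term. Of 11 other naive genes 0 passed, with the steepest slopes for *Dppa5a* at -0.57 and *Tcl1* at -0.48, which were -0.05 and -0.18 with the set as a term. *Dppa5a* was at 26.3 to 37.2 RPM in set 1 and at 4.71 to 9.89 RPM in set 2. Of 16 general pluripotency genes 0 passed, with *Mycn* at -0.37 and *Tdgf1*, which encodes a co-receptor of Nodal, at -0.30 (-0.26 and -0.12 with the set as a term). Yet 9 of the 16 had slopes above 0, with a median of 0.06 against -0.04 over all genes, and 4 with the set as a term. Of 10 formative genes 0 passed, with *Otx2* at -0.41 and *Fgf5* at 0.37, which were -0.40 and 0.03 with the set as a term. Unlike *Otx2*, 8 of these 10 had slopes above 0, with a median of 0.06 against -0.04 over all genes. With the set as a term 4 did. *Otx2*, a driver of the exit from the naive state, was at 19.7, 20.2 and 19.5 RPM in DMSO replicates 1, 2 and 3, at 11.3 and 16.8 RPM at 10 µM, at 8.17 RPM at 20 µM and at 8.99 RPM at 30 µM. All 4 inhibitor libraries were below all 3 DMSO libraries, a pattern whose share of all genes tested was not counted. The slope, with an SE of 0.10, did not pass (adjusted p = 0.508, limma). DESeq2, which called 129 genes (0.949% of those tested), called *Otx2* lower (adjusted p = 0.0218, DESeq2). Of 10 genes of the exit machinery 0 passed, with *Tcf7l1* again the steepest and *Flcn* at -0.30, which was -0.03 with the set as a term.

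With the replicate block at 10 µM, where 7.5% of all genes were called, members of each pathway and pluripotency list passed in limma, and none of the 4 marker lists of other cell types. *Otx2* fell by 0.50 (adjusted p = 0.00837, limma) and *Lef1* fell by 0.52 (adjusted p = 1.09e-05, limma). *Foxd3*, a formative gene at 3.16 and 3.46 RPM in DMSO and 5.40 and 8.05 RPM at 10 µM, rose by 0.82 (adjusted p = 0.000149, limma). Among LIF and STAT3 genes *Socs3*, the feedback inhibitor of the pathway, rose by 0.35 and *Jak1* by 0.25, while *Il6st*, the shared receptor chain, fell by 0.27. Of the other naive genes *Pecam1* fell by 0.42 and *Klf5* fell by 0.28. *Tet1* fell by 0.29, *Zscan10* fell by 0.34, *Zfp706* fell by 0.43 and *Tcf7l1* fell by 0.24, while *Rif1* rose by 0.22 and *Id3* by 0.51. By library totals, not all of these genes moved the same way against DMSO replicate 3 at the higher doses, with 1 library each. *Socs3* and *Rif1* were lower at both 20 µM and 30 µM, and their slopes with the set as a term were -0.11 and -0.02. *Pecam1* and *Tcf7l1* were lower at 20 µM and higher at 30 µM. The other genes named in this paragraph kept their direction at both doses.

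The allelic ratio Xi/(Xi + Xa) was examined for *Nr0b1* and *Tfe3*, genes of these lists on the X chromosome. *Nr0b1* (DAX1), a partner of the naive network, had a ratio of 0.326, 0.271 and 0.389 in the DMSO libraries, 0.228 and 0.168 in the 10 µM libraries, 0.229 with 20 µM and 0.142 with 30 µM, so that the 4 inhibitor libraries were below the 3 DMSO libraries, as they were for 41 of the 386 genes with a ratio (10.6%). The median ratio over the 386 genes was 0.313, 0.307 and 0.269 in the DMSO libraries, 0.288 and 0.292 in the 10 µM libraries, 0.216 with 20 µM and 0.204 with 30 µM. The ratio of *Tfe3* stayed between 0.324 and 0.411. The study kept genes with at least 10 reads that cover a SNP, but the number behind each ratio is unknown. None of the 10 factors is X-linked.

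The mRNAs of the factors differed in how often they hold GGACT, a common form of the m6A consensus. In the longest coding transcript of GENCODE vM21, *Tfcp2l1* held 16, *Esrrb* and *Tbx3* 7 each, *Klf4* 5, *Nanog* 4, *Sox2* 3, *Zfp42* 2 and *Pou5f1*, *Klf2* and *Prdm14* 1 each. Per kilobase, *Nanog* at 1.81 was highest and *Prdm14* at 0.390 lowest, with a median of 1.43 over the 10 factors and of 1.01 over 21877 protein-coding genes. By library totals, *Klf4*, at 1.65 per kb, and *Prdm14* lay farthest from DMSO replicate 3 at 20 µM and at 30 µM, on opposite sides. At 10 µM this did not hold for both. In replicate 1 *Klf2* (-0.25) lay farther from DMSO than *Klf4* (0.16), and in replicate 2 *Pou5f1* (0.22) lay farther than *Prdm14* (-0.21). A link between the motif and these levels was not tested. Methylation of these sites was not measured in these libraries.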

How the data were processed

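The authors removed rRNA-mapped pairs with bowtie2 (the study names 2 rRNA-depletion kits, without the libraries each was used for), mapped the others to N-masked mm10 with STAR, retained unique alignments and counted pairs by strand over whole transcripts with featureCounts. The deposited values are RPM, and the deposited allelic ratios are a fraction per X-linked gene (386 genes). Whole read pairs were recovered from the RPM steps for 100% of values above 0 (within 0.0001 RPM). The 13599 genes averaging 1 RPM or more were tested on log2(RPM + 1), a scale that understates changes of low genes, with limma 3.58.1 (eBayes with trend, Benjamini-Hochberg adjusted p under 0.05) in R 4.3.3. edgeR 4.0.16 and DESeq2 1.42.0 on recovered read pairs, and the settings in the closing section, were alternatives; edgeR called 0 genes in both comparisons and DESeq2 1 and 129. Fits were tested on simulated data. The study describes its RNA-seq repeats of a clone as independent, and the wells of a biological replicate as divided from 1 batch of cells. With this, the labels' numbers 1 and 2 pair DMSO and 10 µM, whose deviations correlated at 0.62 over 13599 genes. Library sets are the signs of principal component 1. All 10 factors are named, and of each list the genes with the largest absolute dose slopes; the other genes named in the calls were taken after their values were seen, and 1 gene that this rule names is not reported here. The factors and lists were chosen with earlier results of these data known. Promoters are from RefSeq and transcripts from GENCODE vM21. Python 3.11.15 (pandas 2.3.3, matplotlib 3.10.9) was used for the remaining steps. Intervals and floors cover counting error only.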

Additional observations from a re-analysis of the deposited data

How the results depend on the processing

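The count of genes called at 10 µM was 0 by limma and in the alternatives except DESeq2 (1), the replicate block (1020) and the fits that left out 1 replicate (0 to 1, with 1 only without DMSO replicate 3). No factor was called at 10 µM in any setting run. For the dose slope the count was 0 except with DESeq2 (129), the library set as a term (27), the replicate block (58) and without DMSO replicate 3 (0 to 2485 over the replicates left out, with 0 to 3 factors). No other setting called a factor.

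The estimates of uncalled factors changed sign easily. At 10 µM, leaving out 1 replicate gave -0.175 to 0.0371 for *Nanog*, -0.125 to 0.230 for *Klf2*, -0.102 to 0.0609 for *Esrrb*, -0.118 to 0.310 for *Tfcp2l1*, -0.0949 to 0.397 for *Tbx3*, -0.291 to 0.144 for *Prdm14* and -0.107 to 0.0135 for *Zfp42*. The replicate block gave -0.125 for *Klf2*, -0.118 for *Tfcp2l1* and 0.0135 for *Zfp42*. For *Klf2*, DESeq2 gave -0.0295 and TMM factors gave -0.0094, against 0.070.

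For the slope, the set term and the replicate block gave the same estimates: 0.0578 for *Pou5f1*, 0.158 for *Klf4*, 0.0061 for *Esrrb*, 0.0608 for *Tfcp2l1*, 0.0761 for *Tbx3*, -0.0147 for *Tcf7l1* and 0.0668 for *Tcf7*, each of the other sign in the fit as reported. DESeq2 gave 0.0361 for *Pou5f1*, 0.0109 for *Esrrb* and 0.0277 for *Tbx3*. TMM factors gave 0.0365 for *Pou5f1*, 0.0128 for *Esrrb*, 0.0332 for *Tbx3* and 0.0084 for *Zfp42*. Totals without the 5 genes gave 0.0043 for *Pou5f1* and 0.00059 for *Tbx3*. Without the 20 µM library *Nanog* was at -0.0189, *Esrrb* at 0.0221 and *Tbx3* at 0.0278. Without the 30 µM library *Pou5f1* was at 0.120 and *Klf4* at 0.0682. Leaving out 1 replicate gave -0.0619 to 0.0097 for *Tbx3*. *Prdm14* and *Klf2* kept slopes below 0 in every setting run.

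Against DMSO replicate 3, in alternatives chosen after seeing the data, *Tbx3* at 20 µM turned to 0.11 with TMM factors and 0.10 with totals without the 5 genes, and *Nanog* at 30 µM turned to -0.0112 with TMM factors. Of 36 such values of the factors, 11 moved beyond the counting interval of the inhibitor library without a change of sign. *Pou5f1* at 20 µM moved from 0.38 to 0.51 with TMM factors. With TMM factors 1 factor was above set 1 in all set 2 libraries, as were 30.1% of all genes tested. Without the 20 µM library 2 factors, *Klf2* and *Prdm14*, were below their DMSO library throughout, as were 15.6% of all genes tested. For *Klf2* this included 24.50 RPM in 10 µM replicate 2 against 24.51 RPM in DMSO replicate 2. With TMM factors, and with totals without the 5 genes, *Klf2* overlapped between the sets. Without the 20 µM library 5 factors, *Pou5f1* now among them, were below set 1 with no overlap, as were 43.3% of all genes tested. The causes of these changes were not tested.

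Depth limits the 20 µM library most, at 9300549 read pairs. With 2 libraries at 10 µM and 1 at each higher dose, the interval of *Klf4* at 10 µM spans from -0.28 to 1.62. A dose effect at 20 µM and 30 µM rests on DMSO replicate 3 alone for its comparison within the set.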
